A study of Homo sapiens with 20 samples.

Results

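ATF4 and 9 genes known as its targets or partners in stress and serine supply were followed in human H1 embryonic stem cells: ASNS, PSAT1, PHGDH, PSPH, SHMT2, TRIB3, DDIT3, CHAC1 and SESN2. They were chosen by name with earlier results of these data known, so the counts of calls below are no independent support for a direction. All 10 were found among the 54435 features of the deposited count files and passed the filter on low counts. The study asked what the noncoding RNA DIGIT does when such cells turn into endoderm, the germ layer of gut, liver and pancreas. It compared unedited cells with cells labelled as DIGIT knockouts, by poly(A) RNA sequencing, in 12 libraries of 6 groups with 2 libraries each. At day 4, the groups were knockout line KO1, knockout line KO2 and wild type (WT), each kept in RPMI medium with B27 supplement and 50 ng/ml Activin A. At day 0, the same KO1, KO2 and WT lines were undifferentiated and grown without feeder cells in mTeSR1 medium. All lines are H1, an established embryonic stem cell line, and each knockout is represented by a single line, so that an effect of the knockout and a peculiarity of a line cannot be told apart. Day, medium and Activin A changed together and cannot be told apart either. No feature of the files carries the name DIGIT, so the knockout rests on the labels and its level was not analysed here.

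ATF4 is a transcription factor of the integrated stress response. Kinases that sense amino acid shortage, unfolded protein, viral RNA or haem shortage phosphorylate the initiation factor eIF2, which lowers translation of most messages but raises that of ATF4. ATF4 then switches on genes for making and importing amino acids and charging tRNA, and, when stress lasts, genes such as DDIT3 that favour cell death. Serine is made from a glycolytic intermediate by PHGDH, PSAT1 and PSPH in turn, and SHMT2 passes a carbon of serine to mitochondrial folate for nucleotide synthesis.

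Libraries held 9942016 to 21394547 counts in features. Levels are given as CPM, counts per 1000000 counts in features after TMM scaling. The summed level of 7 definitive endoderm genes at day 4 was 4902 to 4976 CPM for KO1, 831 to 1052 CPM for KO2 and 4478 to 4876 CPM for WT, against 6.22 to 13.0 CPM in the 6 day 0 libraries. The summed level of 7 genes of undifferentiated cells at day 4 was 3823 to 3900 CPM for KO1, 4722 to 4759 CPM for KO2 and 4063 to 4094 CPM for WT, against 5364 to 5802 CPM at day 0. Endoderm markers thus followed the labelled day. At day 4 KO2 carried less endoderm marker RNA than KO1 and WT. Other marker lists differed too: 4 primitive streak genes summed to 703 to 717 CPM in KO1, 232 to 253 CPM in KO2 and 472 to 626 CPM in WT, and 6 mesoderm genes to 172 to 177 CPM in KO1, 122 to 136 CPM in KO2 and 144 to 150.4 CPM in WT. The 5 neuroectoderm genes were higher in both clones, at 1041 to 1092 CPM in KO1, 1006 to 1033 CPM in KO2 and 786 to 815 CPM in WT, and NES made up nearly all of that sum (means of 1034 CPM in KO1, 987 CPM in KO2 and 766 CPM in WT). The 5 trophoblast and extraembryonic genes summed to 12.4 to 14.2 CPM in KO1, 8.23 to 8.91 CPM in KO2 and 3.28 to 5.93 CPM in WT. Not all 5 went with the sum. CDX2 had no counts in KO1 and CGB none in KO2, while every gene of the list had counts in WT. The part of these marker differences in the results below was not tested. In bulk RNA, a smaller share of cells of a type and less RNA per cell cannot be told apart. The labels do not say that replicates were separate cultures, so p-values measure the spread between these libraries.

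A single library stood apart for DDIT3, CHAC1 and SESN2. The chi-square statistic between the libraries of a group, per feature, was 21.8 in KO1 day 0 and 1.89 to 3.88 in the other 5 groups. This statistic does not say which library differs and grows with depth, and both KO1 day 0 libraries were deeper than any other. The share of tested features that differed by 1 or more on the log2 scale was 2.54% in KO1 day 0 and 1.73 to 2.19% in the other 5 groups. KO1 day 0 replicate 2 held 14.0 CPM of DDIT3, against 3.24 CPM in replicate 1 (log2 ratio 2.07), a ratio reached by 0.0238% of the tested features. CHAC1 stood at 105 CPM in replicate 2 and 44.6 CPM in replicate 1 (log2 ratio 1.23), and SESN2 at 98.2 and 57.1 CPM (log2 ratio 0.78). The other members were not shifted alike, with ATF4 at 318 CPM in replicate 2 and 391 CPM in replicate 1 (log2 ratio -0.30) and PSAT1 at 563 and 549.9 CPM. Of 19 other tested ATF4 and stress targets, 7 (36.8%) were higher in replicate 2 by 0.5 on the log2 scale, against 10% of all tested features. Amino acid transporters were not shifted alike, with 1 of 11 higher and 1 lower by as much (median log2 ratio -0.10). Nor were tRNA synthetases, with 0 of 20 higher and 1 lower (median -0.15). DDIT4, a stress-induced inhibitor of mTOR signalling, had 246 CPM in replicate 2 and 68.5 CPM in replicate 1. Chaperones of the endoplasmic reticulum went the other way, with 5 of 17 lower in replicate 2 by 0.5 or more, against 1159 of all 16792 tested features, among them HSPA5 at 434 CPM against 741 CPM in replicate 1. Undifferentiated-cell markers summed to 5364 CPM in replicate 2 and 5680 CPM in replicate 1. Mesoderm markers summed to 363 CPM in replicate 2 and 225.5 CPM in replicate 1, nearly all of it KDR, a growth factor receptor, at 352 CPM in replicate 2 and 217 CPM in replicate 1. Replicate 2 was also the deepest of the 12 libraries, with 21394547 counts, and the part of depth or KDR in these values was not tested. For DDIT3, CHAC1 and SESN2, differences at day 0 and day changes of KO1 are given below with and without this library.

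**Figure D1:**
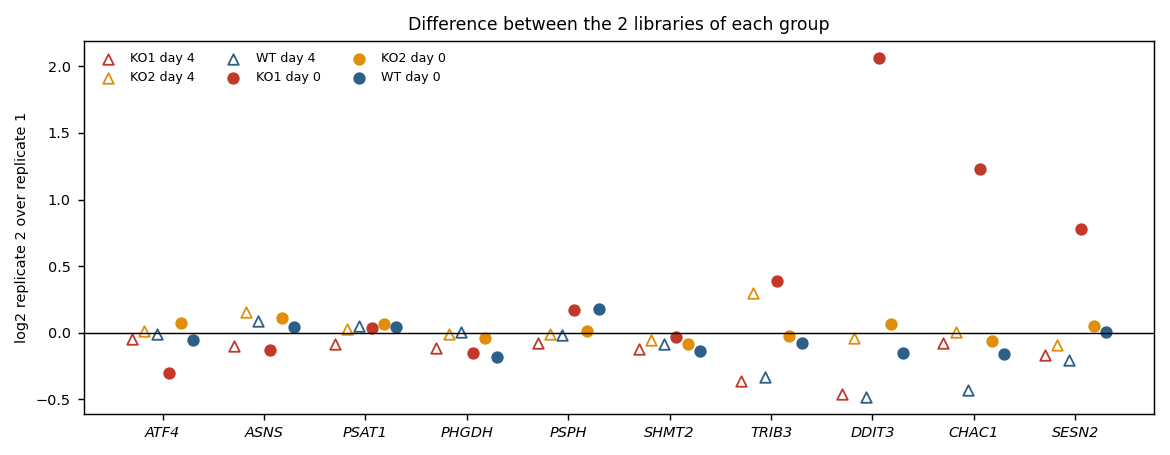
Log2 ratio of replicate 2 over replicate 1 (y axis) for each of the 10 genes (x axis) in the 6 groups; open triangles are day 4, filled circles day 0. KO1 day 0 stands out for DDIT3 (2.07), CHAC1 (1.23) and SESN2 (0.78), while its other genes lie between -0.30 and 0.39.

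ATF4 binds a composite C/EBP-ATF element, and the promoters of these genes were searched for it by letters. RefSeq promoters of GRCh38.p14, 250 bases before and 50 bases after the transcription start, were at hand for 8 of the 10 genes, all but PSPH and SHMT2. They were searched on both strands for TTGCATCA, and for the looser TGATGNAA, which also holds the reverse complement of the first motif. Among all 35116 promoters, 304 (0.866%) held the first and 1270 (3.62%) the second. Counted by gene, with a match in any of its promoters, the shares of 27305 genes were 1.08% and 4.46%. ASNS and CHAC1 held a match, and the other 6 genes had neither string in these windows. Below are both matches and, for comparison, PSAT1, a gene higher in both clones at day 4 with no match; capitals mark the matched letters, and a match is a description of the sequence only. The ASNS promoter lies on the minus strand at chr7:97872359-97872658 and its match begins 68 bases before the start; a further ASNS start in the table had no match. The CHAC1 promoter lies on the plus strand at chr15:40953221-40953520, with the match 209 bases before the start. The PSAT1 promoter lies on the plus strand at chr9:78296875-78297174.
ASNS: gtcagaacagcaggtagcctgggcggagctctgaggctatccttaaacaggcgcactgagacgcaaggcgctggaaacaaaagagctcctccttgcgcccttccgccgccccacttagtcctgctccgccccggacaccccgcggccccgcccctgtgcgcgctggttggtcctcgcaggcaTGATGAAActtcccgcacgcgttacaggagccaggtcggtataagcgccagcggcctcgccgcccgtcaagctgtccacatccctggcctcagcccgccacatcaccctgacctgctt
CHAC1: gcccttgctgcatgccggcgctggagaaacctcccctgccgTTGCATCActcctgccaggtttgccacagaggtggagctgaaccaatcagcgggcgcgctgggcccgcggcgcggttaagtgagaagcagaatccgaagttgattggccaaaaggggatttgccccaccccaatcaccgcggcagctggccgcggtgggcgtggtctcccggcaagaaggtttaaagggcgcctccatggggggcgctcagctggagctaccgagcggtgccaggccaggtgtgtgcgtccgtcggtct
PSAT1: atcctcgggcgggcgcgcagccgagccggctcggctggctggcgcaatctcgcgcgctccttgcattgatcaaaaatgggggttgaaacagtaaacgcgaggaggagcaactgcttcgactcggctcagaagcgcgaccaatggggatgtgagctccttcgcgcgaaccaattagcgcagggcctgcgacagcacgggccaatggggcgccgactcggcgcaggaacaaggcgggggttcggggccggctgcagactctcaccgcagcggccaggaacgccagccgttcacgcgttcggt

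At day 4, KO1 held more RNA of nearly all of these genes than WT, and KO2 more of ASNS and the serine synthesis enzymes. In KO1, 8 of the 10 genes were called higher than in WT (edgeR's quasi-likelihood test with Benjamini-Hochberg adjustment over 16792 features, threshold 0.05), against 10.5% of all tested features called higher. The median of the 10 log2 fold changes was 0.62, and that of all tested features 0.0085. In KO2, 4 of the 10 were called higher than in WT, namely ASNS, PSAT1, PHGDH and PSPH, against 13.5% of all tested features, with a median of 0.10 over the 10 genes and 0.0094 over all features. None was called lower than WT in either clone by edgeR or DESeq2, and none reached an unadjusted p under 0.05 in that direction. At the adjusted threshold, edgeR called 9.42% of all features lower in KO1 and 14.5% in KO2. The KO2 counts were 5 higher and 3 lower when either KO1 day 0 library was left out, and 2 higher when WT day 4 replicate 1 or KO2 day 4 replicate 1 was. Both clones are set against the same WT libraries, so these comparisons are not independent of each other.

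**Figure D2:**
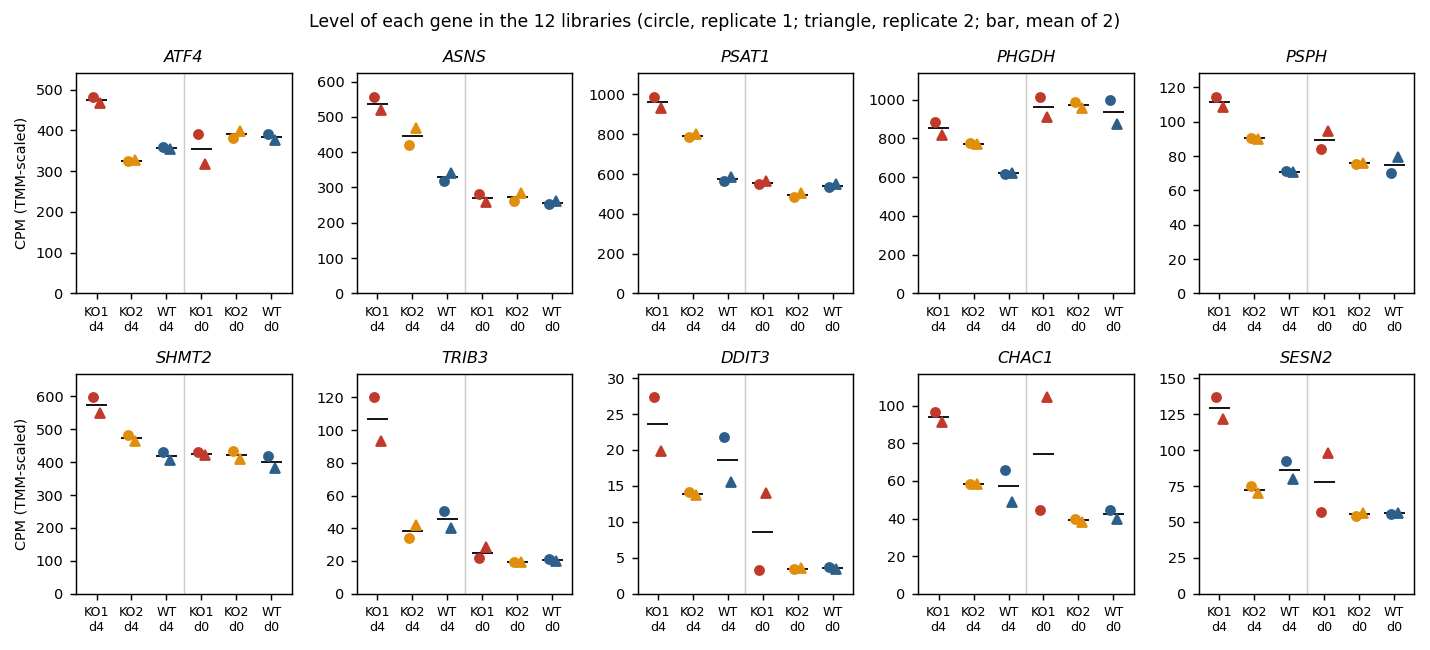
Level of each gene in CPM (y axis, from 0) in the 12 libraries, grouped on the x axis as KO1, KO2 and WT at day 4 (d4), then at day 0 (d0); circles are replicate 1, triangles replicate 2 and bars the mean of both. At day 4, PSAT1 ranges over 931 to 988 CPM for KO1 and 785 to 801 CPM for KO2, with 483 to 583 CPM in the 8 other libraries, and DDIT3, CHAC1 and SESN2 are raised in KO1 day 0 replicate 2.

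ATF4 itself was higher in KO1 than in WT at day 4. Its libraries held 482 and 467 CPM for KO1, 325 and 327 CPM for KO2, and 358 and 355 CPM for WT. The 3 groups did not overlap, with KO1 highest and KO2 lowest. The log2 fold change over WT was 0.41 ± 0.09 (SE) in KO1 (adjusted p = 0.0034). In KO2 it was -0.13 ± 0.09, which was not called (adjusted p = 0.285); without KO1 day 0 replicate 1 or 2 it was -0.15 and called (adjusted p = 0.0391 for each). Set directly against KO1, KO2 was lower by a log2 fold change of -0.54 ± 0.09 (adjusted p = 0.00026). At day 0, ATF4 stood at 391 and 318 CPM for KO1, 381 and 399.6 CPM for KO2, and 390.4 and 376 CPM for WT. Apart from KO1 day 0 replicate 2, the 5 remaining day 0 libraries lay between 376 and 399.6 CPM. RefSeq names 4 copies of ATF4, none of which is a feature of the files, so reads shared with them cannot be sorted out here; the same holds for 5 copies of ASNS, 4 of PSAT1 and 1 of PSPH.

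ASNS, the enzyme that makes asparagine from aspartate and a classical ATF4 target, was higher in both clones. It had 557 and 519 CPM for KO1 at day 4, 421 and 468 CPM for KO2, and 319 and 339.6 CPM for WT. All 4 knockout libraries lay above both WT libraries, and KO1 lay above KO2. The log2 fold change over WT was 0.71 ± 0.08 in KO1 (edgeR adjusted p = 2.3e-05) and 0.43 ± 0.08 in KO2 (adjusted p = 0.00088). KO2 was lower than KO1 by -0.27 ± 0.08 (adjusted p = 0.019), a call lost without KO1 day 4 replicate 1 (adjusted p = 0.188) or KO2 day 4 replicate 1 (adjusted p = 0.193). Further on, a value in parentheses after a library that was left out is the adjusted p without it. At day 0, ASNS had 283 and 259 CPM for KO1, 263 and 284 CPM for KO2, and 253 and 261 CPM for WT. Those groups overlapped, and no day 0 library reached the lowest day 4 library.

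The 3 enzymes of serine synthesis were all higher in both clones at day 4. PHGDH, which takes the first step from 3-phosphoglycerate, had 887 and 817 CPM for KO1, 776 and 769.8 CPM for KO2, and 619 and 620.3 CPM for WT. The groups did not overlap, with WT lowest. Its log2 fold change over WT was 0.46 ± 0.08 in KO1 (edgeR adjusted p = 0.00085) and 0.32 ± 0.08 in KO2 (adjusted p = 0.0070). The KO2 call was lost without WT day 4 replicate 1 (0.0593) or KO2 day 4 replicate 1 (0.058). Between the clones, KO2 over KO1 gave -0.14 ± 0.08, which was not called (adjusted p = 0.213). PHGDH was also the only one of the 10 genes with a higher mean at day 0 than at day 4 in every line, at 1015 and 913 CPM for KO1, 986 and 959.8 CPM for KO2, and 997 and 877 CPM for WT.

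PSAT1, the transaminase of the second step, showed the smallest adjusted p of the 10 genes in both clones. Its level was 988 and 931 CPM for KO1 at day 4, 785 and 801 CPM for KO2, and 563 and 583 CPM for WT. Again the 3 groups did not overlap. The log2 fold change over WT was 0.74 ± 0.07 in KO1 (adjusted p = 2.1e-06) and 0.47 ± 0.07 in KO2 (adjusted p = 9.5e-05). KO2 was lower than KO1 by -0.27 ± 0.07 (adjusted p = 0.0061), a call lost without KO1 day 4 replicate 1 (0.0953) or KO2 day 4 replicate 1 (0.0587). At day 0 the level was 549.9 and 563 CPM for KO1, 483 and 505 CPM for KO2, and 533 and 549.9 CPM for WT. Both WT libraries of day 4 lay just above those of day 0.

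PSPH, the phosphatase that releases serine, had 115 and 109 CPM for KO1 at day 4, 90.7 and 89.9 CPM for KO2, and 71.3 and 70.4 CPM for WT. These groups too were separate and in the order KO1, KO2, WT. Over WT the log2 fold change was 0.65 ± 0.09 in KO1 (adjusted p = 0.0001) and 0.35 ± 0.09 in KO2 (adjusted p = 0.0074). The KO2 value lost its call when any of the 4 libraries compared was left out, at adjusted p = 0.0507 to 0.0644. KO2 over KO1 was -0.30 ± 0.09 (adjusted p = 0.016), and this call too was lost without any of its 4 libraries (0.0518 to 0.148). Day 0 levels were 84.3 and 94.9 CPM for KO1, 75.6 and 76.1 CPM for KO2, and 70.4 and 79.7 CPM for WT. KO1 lay above WT there, with a log2 fold change of 0.25 ± 0.09 that was not called (adjusted p = 0.384). It was 0.16 without KO1 day 0 replicate 2 and not called, and 0.34 and called without replicate 1 (adjusted p = 0.0046).

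SHMT2, the mitochondrial enzyme that uses serine, was higher in KO1. It had 598 and 548 CPM for KO1 at day 4, 481 and 464 CPM for KO2, and 431 and 407 CPM for WT. The groups did not overlap and lay in the order KO1, KO2, WT. KO1 was above WT by log2 0.45 ± 0.07 (adjusted p = 0.00064). KO2 over WT was 0.17 ± 0.07 and not called (adjusted p = 0.0961), although it passed without KO1 day 0 replicate 1 (0.0452) or replicate 2 (0.0454). KO2 over KO1 was -0.28 ± 0.07 (adjusted p = 0.012), lost without KO1 day 4 replicate 1 (0.164) or KO2 day 4 replicate 2 (0.117). At day 0, all 6 libraries lay between 382 and 433 CPM. SHMT2 overlaps NDUFA4L2 in RefSeq, and how reads of both were counted is not given in the sources used here.

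**Figure D3:**
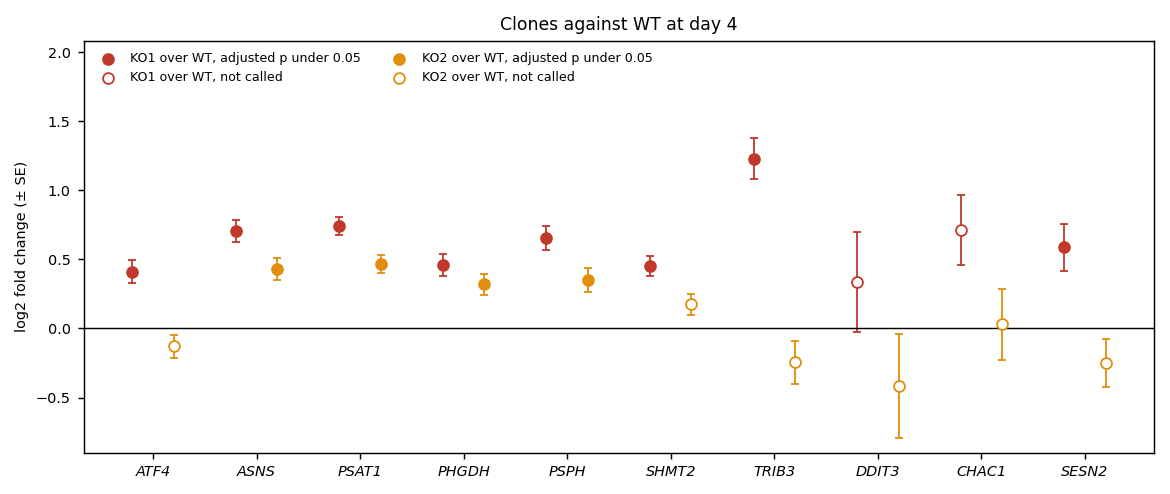
Log2 fold change ± SE (y axis) of KO1 and KO2 over WT at day 4 for each gene (x axis); filled points have an edgeR adjusted p under 0.05. KO1 has 8 filled points between 0.41 and 1.23 and KO2 has 4 between 0.32 and 0.47, all of them ASNS or serine synthesis genes.

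Of the 4 stress effectors, TRIB3 and SESN2 were higher in KO1 than in WT and than in KO2 at day 4, and CHAC1 and DDIT3 were not called. TRIB3, a pseudokinase that ATF4 induces and that in turn restrains ATF4, had 120.2 and 93.3 CPM for KO1 at day 4, 34.3 and 42.2 CPM for KO2, and 50.8 and 40.3 CPM for WT. KO1 lay far above the others, and KO2 and WT overlapped. It had the largest fold change of the 10 genes in KO1 over WT, log2 1.23 ± 0.15 (edgeR adjusted p = 4.5e-05), while KO2 over WT was -0.25 ± 0.15 and not called (adjusted p = 0.258). KO2 over KO1 was -1.47 ± 0.15 (adjusted p = 4.5e-06). Day 0 levels were 21.8 and 28.6 CPM for KO1, 19.6 and 19.2 CPM for KO2, and 21.3 and 20.2 CPM for WT. KO1 day 0 replicate 2 was the highest of these, and all lay below every day 4 library.

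SESN2, which signals leucine shortage to mTORC1 and answers several stresses, was higher in KO1. Its day 4 libraries held 137 and 122 CPM for KO1, 74.8 and 70.1 CPM for KO2, and 92.4 and 80.0 CPM for WT. KO1 lay highest and KO2 lowest, without overlap. KO1 over WT was log2 0.59 ± 0.17 (edgeR adjusted p = 0.0228), a call that any of its 4 libraries decided (adjusted p = 0.0661 and 0.198 without WT replicate 1 and 2, 0.167 and 0.0553 without KO1 replicate 1 and 2). KO2 over WT was -0.25 ± 0.17 and not called (adjusted p = 0.303), and -0.27 and called without KO1 day 0 replicate 1 or 2 (0.00816 and 0.00819). KO2 was lower than KO1 by -0.84 ± 0.17 (adjusted p = 0.0020). At day 0 SESN2 had 57.1 and 98.2 CPM for KO1, 54.3 and 56.2 CPM for KO2, and 55.8 and 56.0 CPM for WT. All but KO1 day 0 replicate 2 lay below every day 4 library.

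CHAC1, which degrades glutathione, had 96.5 and 91.3 CPM for KO1 at day 4, 58.5 and 58.6 CPM for KO2, and 66.0 and 48.9 CPM for WT. KO1 lay above all others, and KO2 fell within the WT values. KO1 over WT was log2 0.71 ± 0.25, not called at adjusted p = 0.0614, and KO2 over WT was 0.03 ± 0.26 (adjusted p = 0.948). KO2 over KO1 was -0.68 ± 0.25, also not called (adjusted p = 0.0622). At day 0 CHAC1 had 44.6 and 105 CPM for KO1, 39.8 and 38.2 CPM for KO2, and 44.6 and 40.0 CPM for WT, so that its widest spread within a group was that of KO1 day 0. Without KO1 day 0 replicate 2, KO1 over WT at day 4 was 0.70 (adjusted p = 3.0e-06) and KO2 over KO1 was -0.69 (adjusted p = 2.6e-06), both called; the same held without replicate 1.

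DDIT3, also called CHOP, the factor tied to death under lasting stress, had the fewest reads of the 10 genes, 36 to 317 per library. Its level was 27.4 and 19.8 CPM for KO1 at day 4, 14.1 and 13.7 CPM for KO2, and 21.7 and 15.5 CPM for WT. KO1 and WT overlapped, and KO2 lay below both. KO1 over WT was log2 0.34 ± 0.36 (adjusted p = 0.569) and KO2 over WT -0.42 ± 0.38 (adjusted p = 0.453), neither called. KO2 over KO1 was -0.75 ± 0.37 (adjusted p = 0.158). Without KO1 day 0 replicate 2, KO2 was called lower than WT (-0.43, adjusted p = 0.0273) and lower than KO1 (-0.75, adjusted p = 0.00026), and without replicate 1 likewise (0.0269 and 0.00025). DDIT3 overlaps MARS, a tRNA synthetase gene, in RefSeq. MARS had 411 CPM in KO1 day 0 replicate 2 and 538 CPM in replicate 1, and the part of shared reads in the DDIT3 values was not tested.

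Set directly against each other at day 4, 7 of the 10 genes were lower in KO2 than in KO1, against 14.3% of all tested features, with a median log2 fold change of -0.42 over the 10 genes and 0.0038 over all features (edgeR). These 7 were ATF4, ASNS, PSAT1, PSPH, SHMT2, TRIB3 and SESN2. None was called higher in KO2 by edgeR or DESeq2, against 10.8% of all features that edgeR called higher at the adjusted threshold. None reached an unadjusted p under 0.05 in that direction either. The count was 3 without KO1 day 4 replicate 1 and 4 without KO2 day 4 replicate 1, and without KO1 day 0 replicate 1 or 2 it was 9. Endoderm markers also differed between these lines, as given above.

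Before differentiation, none of the 10 genes was called between the lines by edgeR or DESeq2. The shares of all tested features called in either direction were 0.238% for KO1 against WT, 0.143% for KO2 against WT and 0.0119% for KO2 against KO1. At an unadjusted p under 0.05, 4 genes were higher in KO1 than in WT, 6 were lower in KO2 than in KO1, and none differed between KO2 and WT. The shares above are at the adjusted threshold. The share of all features at the unadjusted threshold was not counted, so these 2 kinds of values cannot be compared. The 4 in KO1 were DDIT3 at log2 1.31 ± 0.48 (adjusted p = 0.427), CHAC1 at 0.83 ± 0.26 (0.331), SESN2 at 0.48 ± 0.17 (0.4195) and PSPH at 0.25 ± 0.09 (0.384). Without KO1 day 0 replicate 2 the first 3 became -0.14, 0.08 and 0.03, and without replicate 1 they became 1.98, 1.31 and 0.81 and were called (edgeR adjusted p = 1.2e-06, 1.3e-08 and 1.1e-06). TRIB3 over WT was 0.29 with both libraries and not called (adjusted p = 0.586), and 0.47 and called without replicate 1 (adjusted p = 0.0315). ATF4 over WT was -0.11 with both libraries, 0.03 without replicate 2, and -0.27 and called lower without replicate 1 (adjusted p = 0.0060). Against KO1, the 3 largest differences of KO2 at an unadjusted p under 0.05 were DDIT3 at -1.36, CHAC1 at -0.94 and SESN2 at -0.50 (edgeR adjusted p = 0.938 for each). Leaving out KO1 day 0 replicate 2 gave 0.09 for DDIT3, -0.19 for CHAC1 and -0.049 for SESN2. Leaving out replicate 1 instead gave -2.03 for DDIT3, -1.43 for CHAC1, -0.83 for SESN2, -0.56 for TRIB3, -0.33 for PSPH and 0.29 for ATF4. Either fit leaves 1 KO1 library at day 0. KO2 over WT ranged over the 10 genes from -0.13 for PSAT1 to 0.09 for ASNS, each with adjusted p = 1.

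From day 0 to day 4 the lines shared a gain of ASNS, TRIB3 and DDIT3. In KO1, 8 of the 10 genes were higher at day 4 (edgeR), against 29.1% of all tested features. None was called lower by edgeR or DESeq2, against 29.3% of all features at the adjusted threshold. At an unadjusted p under 0.05, 1 was lower. In KO2, 5 were higher and 2 lower, against 25% and 25.7% of all features, with 8 higher without KO1 day 0 replicate 1 or 2. In WT, 4 were higher and 1 was lower, against 24.3% and 25.4%. The median log2 change of the 10 genes was 0.58 in KO1, 0.49 in KO2 and 0.22 in WT. That of all tested features was 0.0023 in KO1, -0.0027 in KO2 and -0.0038 in WT.

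**Figure D4:**
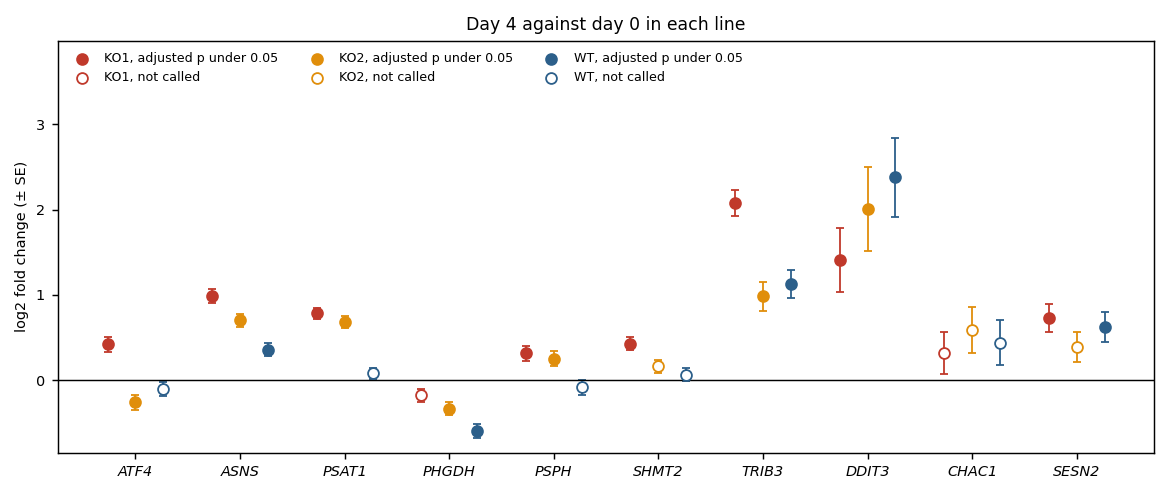
Log2 fold change ± SE (y axis) of day 4 over day 0 in KO1, KO2 and WT for each gene (x axis); filled points have an edgeR adjusted p under 0.05. PSAT1 is at 0.79 in KO1, 0.68 in KO2 and 0.08 in WT, PHGDH is below 0 in all 3 lines, and ATF4 is above 0 in KO1 and below 0 in KO2 and WT.

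DDIT3 was higher at day 4 by log2 1.41 ± 0.37 in KO1 (edgeR adjusted p = 0.0046), 2.01 ± 0.49 in KO2 (adjusted p = 0.0033) and 2.38 ± 0.46 in WT (adjusted p = 0.00054). The KO1 value was 2.85 without KO1 day 0 replicate 2 and 0.74 without replicate 1. In a fit of the KO1 libraries alone it was 1.42 and missed the threshold (adjusted p = 0.0559). TRIB3 was higher at day 4 by 2.08 ± 0.15 in KO1 (adjusted p = 2.0e-08), 0.98 ± 0.17 in KO2 (adjusted p = 0.00021) and 1.13 ± 0.16 in WT (adjusted p = 3.8e-05). ASNS was higher at day 4 by 0.99 ± 0.08 in KO1, 0.70 ± 0.08 in KO2 and 0.36 ± 0.08 in WT (adjusted p = 5.8e-08, 4.5e-06 and 0.0016). The gain of ASNS was thus present in every line and smallest in WT. SESN2 was higher at day 4 in KO1 (0.73 ± 0.17, adjusted p = 0.0015; 1.18 without KO1 day 0 replicate 2 and 0.40 without replicate 1) and in WT (0.62 ± 0.17, adjusted p = 0.0076; 0.0663 without WT day 4 replicate 1). Its change in KO2 was 0.39 ± 0.18 and not called (adjusted p = 0.0788), but called without KO1 day 0 replicate 1 or 2 (0.00029 and 0.0003). CHAC1 was called in no line, at 0.32 ± 0.25 in KO1, 0.59 ± 0.27 in KO2 and 0.44 ± 0.26 in WT (adjusted p = 0.275, 0.0819 and 0.181). Without KO1 day 0 replicate 2 its change was called in all 3 lines, at 1.08 in KO1, 0.59 in KO2 and 0.46 in WT (adjusted p = 2.7e-08, 4.0e-05 and 0.00047), and without replicate 1 the KO1 change turned to -0.16.

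Which genes of the serine pathway were called differed by line, and the direct test of the day change between lines is given below. PHGDH was lower at day 4 in KO2 (-0.33 ± 0.08, edgeR adjusted p = 0.0025) and in WT (-0.60 ± 0.08, adjusted p = 1.5e-05). In KO1 its change of -0.18 ± 0.08 was not called (adjusted p = 0.0615), and it was -0.25 and called without KO1 day 0 replicate 2 (0.0051) and -0.17 without WT day 0 replicate 2 (0.049). PSAT1 was higher at day 4 by 0.79 ± 0.07 in KO1 (adjusted p = 9.1e-08) and 0.68 ± 0.07 in KO2 (adjusted p = 8.6e-07), and its change in WT was 0.08 ± 0.07 (adjusted p = 0.318). PSPH was higher at day 4 in KO1 (0.31 ± 0.08, adjusted p = 0.0049). In KO2 it was higher by 0.25 ± 0.09 (adjusted p = 0.026), a call lost without any of the 4 KO2 libraries (0.0906 to 0.108) and with upper-quartile scaling (0.0851). Its change in WT was -0.08 ± 0.09 (adjusted p = 0.441). SHMT2 was higher at day 4 in KO1 by 0.43 ± 0.07 (adjusted p = 0.00015), with 0.17 ± 0.07 in KO2 (adjusted p = 0.0772; 0.0232 and 0.0243 without KO1 day 0 replicate 1 and 2) and 0.06 ± 0.07 in WT (adjusted p = 0.495). ATF4 RNA was higher at day 4 in KO1 (0.42 ± 0.08, adjusted p = 0.00057; 0.28 without KO1 day 0 replicate 2). With either KO1 day 0 library left out, the KO1 changes of ASNS, TRIB3, PSAT1, PSPH and SHMT2 kept their calls and moved by less than 1.5 times. In KO2 it was lower (-0.26 ± 0.09, adjusted p = 0.020), which was lost without KO2 day 0 replicate 2 (0.131) or KO2 day 4 replicate 1 (0.0956) or 2 (0.085), and in WT it was -0.10 ± 0.09 (adjusted p = 0.332).

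Whether the day change itself differed from that of WT was tested by the interaction of line and day. In KO1, 6 of the 10 genes had a more positive day change than WT, against 4.99% of all tested features. None was called more negative by edgeR or DESeq2, against 4.81% of all features at the adjusted threshold. None reached an unadjusted p under 0.05 in that direction either. PSAT1 differed by log2 0.70 ± 0.09 (edgeR adjusted p = 0.0003), ASNS by 0.63 ± 0.11 (0.0029), ATF4 by 0.52 ± 0.12 (0.013), TRIB3 by 0.94 ± 0.22 (0.016), PHGDH by 0.42 ± 0.11 (0.028) and SHMT2 by 0.37 ± 0.11 (0.040). The count was 3 when replicate 1 of WT, of either day, was left out, and 2 when WT day 4 replicate 2 or KO1 day 4 replicate 1 was. With these 4 libraries left out in turn, ATF4 (0.0523 to 0.0711) and PHGDH (0.0827 to 0.142) lost their calls, and PHGDH also without KO2 day 4 replicate 1 (0.0506). TRIB3 lost its call without WT day 0 replicate 1 or 2, WT day 4 replicate 2 or KO1 day 4 replicate 1 (0.0639 to 0.0905), and SHMT2 without any of 10 libraries (0.0539 to 0.194). Each fit without a library of KO1 or WT leaves 1 library in its group. The range of the counts over all fits is given further on, and its highest counts came from fits without a KO1 day 0 library. For the fits without a KO1 day 0 library, only sizes are given here. Without replicate 2 the KO1 minus WT difference was 0.46 for DDIT3, 0.62 for CHAC1 and 0.55 for SESN2. Without replicate 1 it was -1.65, -0.61 and -0.24. In KO2, PSAT1 alone differed from WT (0.60 ± 0.09, edgeR adjusted p = 0.00064), against 6.37% of all features. None was called more negative by either tool, against 7.5% of all features at the adjusted threshold. Nor did any reach an unadjusted p under 0.05 in that direction. At an unadjusted p under 0.05, 4 genes were more positive in KO2, and the share of all features at that threshold was not counted. ASNS came next in KO2 at 0.34 ± 0.11 (adjusted p = 0.056), and passed without KO1 day 0 replicate 1 or 2 (0.0091 for each), as did PHGDH (0.0334 and 0.0336) and PSPH (0.0203 and 0.0204).

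Other genes of the same programme were read from lists chosen by function, also with earlier results of these data known. Of all tested features, 10.5% were called higher and 9.42% lower in KO1 over WT, and 13.5% and 14.5% in KO2 over WT. Of 19 tested further ATF4 and stress targets, 9 were called in KO1 over WT at day 4, each higher, with a median log2 fold change of 0.56. ATF5, a relative of ATF4 under like control, averaged 86.7 ± 8.87 CPM in KO1 and 45.5 ± 4.32 CPM in WT (SD, n = 2 each; log2 0.93, edgeR adjusted p = 4.6e-05). The secreted glycoprotein STC2 averaged 280 ± 17.5 CPM in KO1 and 154 ± 11.9 CPM in WT (log2 0.86, adjusted p = 0.00089). In KO2 the same list held 4 higher and 3 lower calls and a median of 0.06. There were 2 higher calls when any of the 4 WT and KO2 libraries of day 4 was left out, and 5 lower calls when either KO1 day 0 library was. ALDH18A1, an enzyme of proline synthesis, was higher there (215 ± 5.94 CPM in KO2 and 159 ± 2.42 CPM in WT, log2 0.44, adjusted p = 0.00044). PPP1R15A, the phosphatase subunit that reverses eIF2 phosphorylation, was lower (49.7 ± 0.76 CPM in KO2 and 93.1 ± 17.8 CPM in WT, log2 -0.90, adjusted p = 8.7e-05), and so was GADD45A (log2 -0.55, adjusted p = 0.0052). The third lower gene was GDF15, a stress-induced cytokine under the 5 CPM set for naming and named here after its values were seen, with 0.214 ± 0.0758 CPM in KO2 and 3.58 ± 0.858 CPM in WT (log2 -3.99, adjusted p = 2.9e-06).

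Of 11 amino acid transporters, 8 were higher in KO1 than in WT and 1 was lower, with a median of 0.47. SLC7A11, the cystine importer, averaged 349 ± 36.4 CPM in KO1 and 149 ± 21.3 CPM in WT (SD, n = 2 each; log2 1.23, edgeR adjusted p = 0.00012). SLC1A4, a carrier of serine and other small neutral amino acids, averaged 27.9 ± 5.70 CPM in KO1 and 10.7 ± 2.86 CPM in WT (log2 1.38, adjusted p = 5.4e-05). In KO2, 4 were higher (2 without WT day 4 replicate 2 or KO2 day 4 replicate 1) and 1 lower, with a median of 0.33. SLC7A3, a carrier of cationic amino acids, was the lower gene in both clones, with log2 -0.38 in each (adjusted p = 0.012 in KO1 and 0.0075 in KO2). Its KO1 call was lost without WT day 4 replicate 1 (0.101) or KO1 day 4 replicate 2 (0.128), and its KO2 call without WT day 4 replicate 1 (0.0734) or KO2 day 4 replicate 2 (0.111).

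Cytosolic tRNA synthetases, which load amino acids onto tRNA, were called in 12 of 20 cases in KO1, each higher, with a median of 0.32. In KO2, 11 were higher and 1 was lower, with a median of 0.26, and the higher calls numbered 4 with WT day 4 replicate 1 left out, 7 with KO2 day 4 replicate 1 left out and 6 with KO2 day 4 replicate 2 left out. LARS, for leucine, was higher in KO2 by log2 0.48 (edgeR adjusted p = 0.00013). WARS, for tryptophan, was higher in KO1 (log2 0.70, adjusted p = 3.4e-05). In KO2 it was the lower one (log2 -0.27, adjusted p = 0.022), a call lost without WT day 4 replicate 1 (0.13), KO2 day 4 replicate 1 (0.0546) or KO2 day 4 replicate 2 (0.163).

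Folate enzymes were split. In KO1, 4 of 13 were higher and 1 lower, and in KO2, 4 were called, each higher. The lower gene was AMT, another part of the glycine cleavage system (log2 -0.44, edgeR adjusted p = 0.012; 0.0635 and 0.0539 without WT day 4 replicate 1 and 2, and 0.133 without KO1 day 4 replicate 1). When either KO1 day 0 library was left out, the KO2 counts were 7 higher and 1 lower. ALDH1L2, of mitochondrial folate, averaged 32.3 ± 2.13 CPM in KO1, 21.7 ± 1.15 CPM in KO2 and 12.3 ± 2.19 CPM in WT (SD, n = 2 each). Its log2 fold change over WT was 1.38 in KO1 (edgeR adjusted p = 1.5e-05) and 0.81 in KO2 (adjusted p = 0.0011). MTHFD2, which acts next to SHMT2, was higher in KO1, with 478 ± 31.9 CPM in KO1 and 251 ± 10.2 CPM in WT (log2 0.93, adjusted p = 0.00012). GLDC, a subunit of the glycine cleavage system, was higher in KO2, with 145 ± 5.53 CPM in KO2 and 91.9 ± 12.4 CPM in WT (log2 0.66, adjusted p = 9.5e-05). Kinases, phosphatase subunits and sensors upstream of ATF4 were called in 2 of 12 cases in KO1, both higher, with a median of 0.08 (0 or 1 call when any of the 4 libraries compared was left out). The list holds genes that act in opposite ways on eIF2. EIF2AK3, the kinase of the endoplasmic reticulum also called PERK, was higher by log2 0.34 (adjusted p = 0.010; 0.0686 to 0.0817 without any of the 4 libraries compared). PPP1R15B, a subunit of the phosphatase that removes the phosphate from eIF2, was higher by log2 0.50 (adjusted p = 0.0044; 0.0663 without WT day 4 replicate 2 and 0.0573 without KO1 day 4 replicate 1). In KO2, 2 of the 12 were higher and 1, PPP1R15A, was lower, with a median of 0.14. The higher genes were EIF2S1, the eIF2 subunit that is phosphorylated (log2 0.33, adjusted p = 0.0104), and GCN1L1, an activator of the amino acid sensing kinase GCN2 (log2 0.29, adjusted p = 0.0079), and 0 or 1 of them was called when any of the 4 libraries compared was left out.

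Chaperones and other branches of the unfolded protein response gave few calls. In KO1 over WT, 1 of 17 was called, HERPUD1 (log2 0.50, edgeR adjusted p = 0.0018), and the median was 0.0032. In KO2 over WT, 2 of 17 were called, both lower, SEL1L (log2 -0.49, adjusted p = 0.0034; 0.0608 without WT day 4 replicate 1) and PDIA4 (log2 -0.32, adjusted p = 0.030; 0.114 to 0.159 without WT day 4 replicate 2 or either KO2 day 4 library), and the median was -0.11. With either KO1 day 0 library left out, the calls were 2 higher and 6 lower in KO1 and 1 higher and 8 lower in KO2. From day 0 to day 4 the same list had 14 of 17 higher in KO1, 9 in KO2 and 13 in WT, against 29.1% of all tested features in KO1, 25% in KO2 and 24.3% in WT, with medians of 0.55 in KO1, 0.30 in KO2 and 0.53 in WT.

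Targets of NRF2, the oxidative stress factor that shares SLC7A11 with ATF4, were called in 3 of 8 cases in KO1, each higher. In KO2, 3 were higher and 1 lower, and the higher calls were 0 or 1 without any of the 4 libraries compared. The lower gene was OSGIN1, under the 5 CPM set for naming and named after its values were seen, with 0.167 ± 0.237 CPM in KO2 and 0.844 ± 0.100 CPM in WT (SD, n = 2 each; log2 -2.15, edgeR adjusted p = 0.0353). DESeq2 gave it no adjusted p, and the call was lost without either WT library, either KO1 library or KO2 replicate 1 of day 4 (0.0502 to 0.212). GCLM, a subunit of the glutathione-making enzyme, was higher in KO1 (log2 0.86, edgeR adjusted p = 0.00023) and in KO2 (log2 0.55, adjusted p = 0.0044; 0.0697 without WT day 4 replicate 2 and 0.0712 without KO2 day 4 replicate 2). Targets of p53, of which SESN2 is also one, were lower in 12 of 13 cases in KO1 (median -0.69) and 11 of 13 in KO2 (median -0.66). FDXR, a mitochondrial reductase, was lower in KO1 by log2 -1.48 (adjusted p = 4.2e-06), and CDKN1A, the cell cycle inhibitor p21, in KO2 by log2 -2.07 (adjusted p = 7.6e-07). Some of these were lower before differentiation, where 0.238% of all features were called in KO1 and 0.143% in KO2. At day 0, 3 of the 13 were lower in KO1 than in WT, with a median of -0.45, and CDKN1A was lower in KO2 (log2 -1.06, adjusted p = 0.0363), with a median of -0.40. With either WT day 0 library left out, neither clone kept such a call. Those fits leave 1 WT library at day 0. A fit without KO1 day 0 replicate 1 likewise leaves 1 library in its group, and its counts are not given for this list. Over all features, the calls of KO1 over WT at day 0 moved both ways when a library was left out, as given further on. Leaving out libraries therefore does not settle the day 0 calls of this list.

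**Figure D5:**
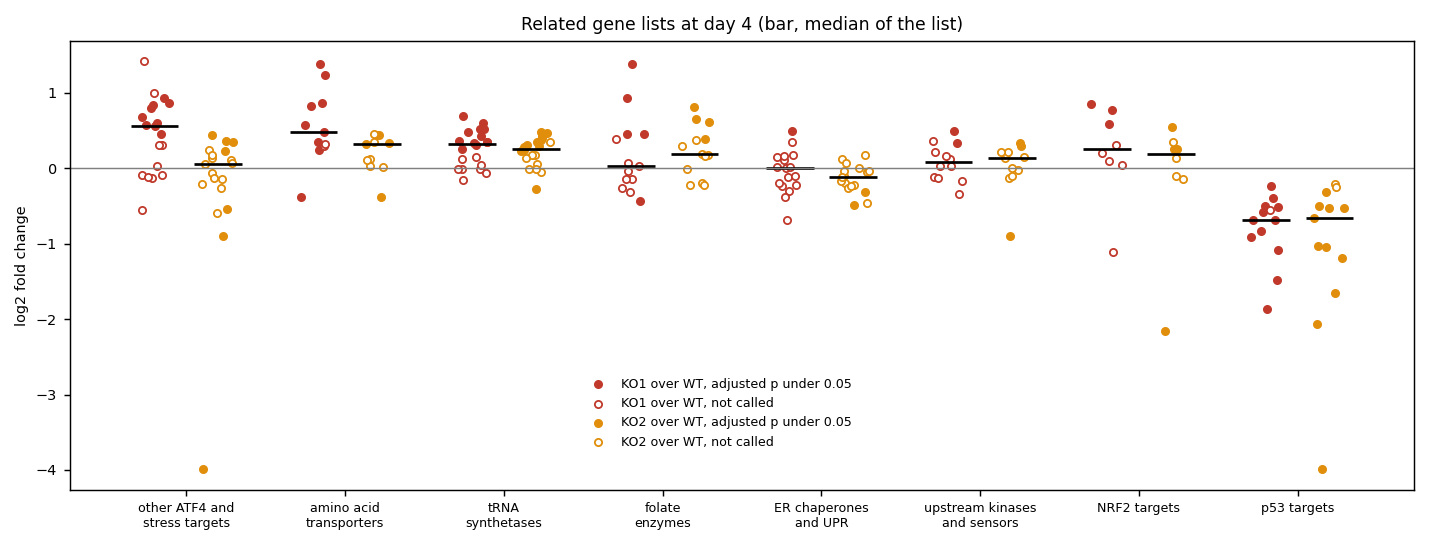
Log2 fold change over WT at day 4 (y axis) of the genes of 8 related lists (x axis), KO1 left and KO2 right in each pair; filled points have an edgeR adjusted p under 0.05 and bars are list medians. Medians of other ATF4 targets are 0.56 in KO1 and 0.06 in KO2, those of chaperones lie near 0, and those of p53 targets are -0.69 and -0.66; GDF15 is the point near -4 in 2 lists.

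Across the 12 libraries, ATF4 RNA and the mean pattern of the 10 genes were unlike in the genes that followed them most closely. Among 12444 candidate features with at least 5 CPM in their highest group, the Pearson correlation with ATF4 was highest for SMPD3 (0.965), ST20 (0.961), CRMP1 (0.953), CHST2 (0.947) and HIST1H4H (0.934), none of which is in the lists above. With the mean of the 10 genes it was highest for NHSL1 (0.988), SLC7A11 (0.984), EIF1 (0.981), ELMSAN1 (0.977) and the serine tRNA synthetase gene SARS (0.974). That mean was taken over log CPM without scaling each gene, so genes with a wide range weigh more in it. The 10 genes did not all go together: correlations between pairs of them ran from -0.681 (PHGDH and DDIT3) to 0.964 (ASNS and PSAT1). The libraries come from 3 lines and 2 days, so these values describe likeness over 6 groups and carry no test.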

How the data were processed

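RNA of 12 libraries was sequenced with a stranded mRNA kit, per the labels' protocols. The authors' deposited files hold raw read counts per feature, 1 library each; per the submitters' processing notes, Bowtie2 2.1.0, HTSeq 0.6.1 and hg19 were used. Strand setting and annotation: not given in the sources used here. Summary lines (29.2 to 30.5% of reads outside features, 19.3 to 22.2% of low mapping quality, 1.17 to 1.41% ambiguous, 0.115 to 0.171% not aligned) were left out of library sizes. The 8 ChIP samples of the series were not analysed here.

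Counts were scaled with TMM factors, filtered with filterByExpr, which kept 16792 features, and tested in 1 fit of 6 groups (6 residual degrees of freedom) with edgeR 4.0.16's quasi-likelihood test in R 4.3.3, with Benjamini-Hochberg adjustment over all kept features and a threshold of 0.05. The SE of a log2 fold change was taken from its size over the root of the F statistic. Fits were checked on simulated counts with changes planted in KO1 at day 4. The simulation held no day differences and no library that stood apart, so it does not bear on those parts of the results. Log CPM for replicate ratios and correlations used a prior count of 2, and figures matplotlib 3.10.9. Alternatives were other scaling factors, no filter, only the libraries compared, a replicate block, DESeq2 1.42.0 and leaving out each library.

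All 10 genes are named whatever their values. From each list, up to 2 called genes with the largest change each way and at least 5 CPM could be named; GDF15 and OSGIN1 are exceptions, and the genes that describe KO1 day 0 replicate 2 (DDIT4, HSPA5, KDR, MARS) were chosen after their values were seen. The members and lists were chosen with earlier results of these data known, so they are no independent support for a direction.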

Additional observations from a re-analysis of the deposited data

Results flagged for a closer look

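For 6 of the 10 genes the change from day 0 to day 4 differed between KO1 and WT by the interaction of line and day in edgeR's quasi-likelihood test. The difference, KO1 minus WT on the log2 scale, was 0.52 for ATF4, 0.63 for ASNS, 0.70 for PSAT1, 0.42 for PHGDH, 0.37 for SHMT2 and 0.94 for TRIB3. For PSAT1 the change also differed between KO2 and WT, by 0.60. Both differences are taken against the same WT libraries. The libraries that decide these calls are named beside them in the report.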

How the results depend on the processing

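Of 1980 comparisons of a gene's result with its value under an alternative, 1809 kept direction and side of the threshold, 87 gained a call, 57 lost it and 27 changed sign, all 27 with 1 library left out. Over the 660 with all libraries the counts were 616, 38 and 6, and the cause of each change was not tested. The labels do not say whether same-numbered libraries of different groups belong together. Their replicate differences correlated at -0.04 to 0.155 over the 15 pairs of groups. Counting noise lowers such a correlation, so these values cannot decide it. A replicate block gave 1 member lower at day 4 in KO1 (PHGDH, adjusted p = 0.0279) and 2 members with a more positive day change in KO2 than in WT (ASNS joined, 0.046), and brought SHMT2 in KO2 over WT (0.0389), SHMT2 in the KO2 day change (0.0304) and PSPH in the KO1 interaction (0.0402) past the threshold.

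Fitted with only the libraries compared, all features called were 5109 for KO1 over WT and 6748 for KO2 over KO1 at day 4, 12, 105 and 0 for KO1 over WT, KO2 over WT and KO2 over KO1 at day 0, and 853 and 4098 for the interactions of KO1 and KO2; members lower in KO2 over WT at day 4 were 3, members higher in the KO2 day change 8, and members more positive in the interactions 3 for KO1 and 4 for KO2. That KO2 over KO1 count of 0 at day 0 compares with 2 in the fit of all libraries. There edgeR at an unadjusted p under 0.05 had 6 members lower, with no share of all features counted, and DESeq2 called 0 members. Without the filter, day 0 gave 383, 113 and 71 features for the same 3 comparisons, with 3 members higher in KO1 over WT and 3 lower in KO2 over KO1, and elsewhere 1 member lower in KO2 over WT at day 4, 1 lower in the KO1 day change, 1 more negative in the KO1 interaction and 2 more positive in the KO2 interaction. Upper-quartile factors gave 1 member lower in the KO1 day change.

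With 1 library left out at a time, features called ranged over 1353 to 5228 (KO1 over WT), 2492 to 6596 (KO2 over WT) and 2146 to 6120 (KO2 over KO1) at day 4, over 9 to 3787, 2 to 120 and 0 to 2746 at day 0, and over 607 to 4513 and 1210 to 4245 for the interactions of KO1 and KO2. Members ranged over 2 to 5 higher and 0 to 3 lower in KO2 over WT and 3 to 9 lower in KO2 over KO1 at day 4. At day 0 they were 0 to 5 higher and 0 to 1 lower in KO1 over WT, and 0 to 1 higher and 0 to 5 lower in KO2 over KO1. For the day change they were 0 to 1 lower in KO1, and 4 to 8 higher and 1 to 2 lower in KO2. For the interactions they were 2 to 9 more positive and 0 to 2 more negative in KO1, and 1 to 4 more positive in KO2.

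Log2 values that changed sign ranged as follows. At day 0, KO1 over WT gave ATF4 -0.27 to 0.029, PHGDH -0.046 to 0.13 and DDIT3 -0.14 to 1.98. KO2 over WT gave ATF4 -0.014 to 0.058, PHGDH -0.035 to 0.15, PSPH -0.076 to 0.11, DDIT3 -0.13 to 0.019 and SESN2 -0.045 to 0.0051. KO2 over KO1 gave ATF4 -0.0057 to 0.29, ASNS -0.049 to 0.076, PHGDH -0.062 to 0.087, SHMT2 -0.059 to 0.023 and DDIT3 -2.03 to 0.088. At day 4, CHAC1 in KO2 over WT ran over -0.19 to 0.24. The day change of PSPH in WT ran over -0.15 to 0.028 and that of CHAC1 in KO1 over -0.16 to 1.08. In the KO1 interaction DDIT3 ran over -1.65 to 0.46, CHAC1 over -0.61 to 0.62 and SESN2 over -0.24 to 0.55, and in the KO2 interaction TRIB3 ran over -0.32 to 0.010 and CHAC1 over -0.073 to 0.36. With 36 to 317 counts per library, DDIT3 has the coarsest values of the 10 genes.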
